A study of Xenopus tropicalis with 24 samples.

Results

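The genes described here hold epidermal cells together or direct their differentiation. They were chosen by symbol, from a list of 34 symbols of junction components, surface proteins and regulators of epithelial identity, each matched with or without a numbered suffix. Of these symbols, 33 were found among the 26531 genes of the count table, and esrp2 was not matched. The symbol cldn6 matched a pair of genes, cldn6.1 and cldn6.2, so the list holds 34 genes: 11 regulators, 10 desmosome genes, 4 adherens junction and surface genes and 9 tight junction genes. All 34 passed the filter on low counts in every comparison. The rule uses symbols and no measured value, and the list was drawn up with earlier results of these data known.

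Tails of Xenopus tropicalis tadpoles were cut at stage 56, before metamorphosis, or at stage 61, its climax, and RNA was sequenced from tissue at the cut end at 0, 6 and 24 hours post amputation (hpa). The groups were wild type (WT56 and WT61) and TRDKO (TRDKO56 and TRDKO61), bred to lack both thyroid hormone receptor genes, TRα and TRβ. Cutting was the only treatment and was common to all groups, and the 0 hpa samples were cut too. With 2 libraries in each of the 12 conditions, the step from 0 to 6 hpa follows wound healing and the step from 6 to 24 hpa follows formation of the blastema.

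TRDKO tadpoles came from parents lacking TRα and carrying 1 intact copy of TRβ, so genotype cannot be told apart from parentage. Each condition pooled tissue of several tadpoles, and it is not stated how the animals were divided between its libraries, which makes the tests below a measure of the spread between libraries that may in part be technical. The tissue was the new growth plus a short stretch of the old tail next to the cut, so the share of epidermis can differ between conditions. In such bulk RNA, fewer cells of a type and less RNA per cell cannot be told apart.

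Epithelial cells are joined by adherens junctions, built on E-cadherin, by desmosomes, which tie cadherins to keratin filaments through plakoglobin, plakophilins and plakins, and by tight junctions, in which claudins and occludin seal the space between cells and bind scaffold proteins inside. Transcription factors of the p63, grainyhead-like, Krüppel-like, ovo-like and epithelial ETS families keep the epithelial program active in the skin of vertebrates, and the splicing factor Esrp1 sets epithelial isoforms in mammals. When skin is wounded, epidermal cells loosen or rebuild these contacts as they move over the wound, and in an amphibian tail they form the wound epidermis under which regrowth starts.

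The libraries held between 3956148 and 20731438 counts (median 12576320). Levels are given as CPM, counts scaled to library size with TMM factors, replicate 1 before replicate 2, and an ordering between genes uses CPM per kilobase of exon. A log2 fold change (log2 FC) is given ± its standard error from the edgeR quasi-likelihood fit. FDR is the Benjamini-Hochberg adjusted p of that fit over all genes tested, and a gene is said to rise, fall or differ where FDR is under 0.05. Where libraries of a passing gene are said to be separate, this describes the libraries already used in its test. It adds no support to the call, and the share of all genes with such separation was not counted. The members shifted together between replicates of some conditions. In WT56 at 6 hpa only 5 of 34 were higher in replicate 2, with a median log2 ratio of -0.43, whereas replicate 2 was the higher for 31 of 34 in TRDKO61 at 6 hpa (0.43), 33 of 34 in TRDKO61 at 24 hpa (0.47) and 30 of 34 in WT61 at 24 hpa (0.29). In the other 8 conditions the median log2 ratio lay between -0.17 and 0.26. Among tissue markers, the 23 keratin genes matched summed to between 5933 and 14686 CPM with 1 to 6 genes at 0 (krt5, krt14 and krt16 were not matched), 13 muscle genes to between 4405 and 37603 CPM and 13 leukocyte genes to between 661 and 3853 CPM.

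All 34 genes were expressed in the tail, at very unequal levels. epcam, an adhesion molecule of epithelial surfaces, had the highest mean level per length, 584 CPM per kilobase, and cldn3 the lowest, 0.530. Every library had more than 1 CPM of 33 genes, all but cldn3, and more than 10 CPM of 32, all but cldn3 and ovol1. Between the lowest and highest condition means, 24 of the 34 genes spanned over 2-fold and the median span was 2.34-fold. The widest spans belonged to cldn3, from a mean of 0.330 CPM in WT56 at 24 hpa to 5.27 in WT61 at 6 hpa on 2 to 95 counts a library, and klf4 (8.57-fold).

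Of the surface genes, epcam ranged over the 24 libraries from 700.1 to 1678 CPM, cdh1 (E-cadherin) from 256 to 1354 CPM, sdc1 (the proteoglycan syndecan-1) from 136 to 480.4 CPM and st14 (the membrane protease matriptase) from 154 to 284 CPM. Among desmosome genes, dsp (desmoplakin, the link to keratin) ranged from 515 to 1627 CPM, jup (plakoglobin) from 259 to 578 CPM, the cadherins dsg2 and dsc3 from 173 to 545 CPM and from 80.3 to 516 CPM, and perp, a membrane protein of desmosomes, from 456 to 886 CPM. The plakophilins pkp1, pkp2 and pkp3, which cluster desmosomal cadherins, ranged from 72.0 to 389 CPM, from 24.8 to 48.0 CPM and from 132 to 434 CPM. The plakins ppl (periplakin) and evpl (envoplakin) ranged from 445 to 1177 CPM and from 464 to 1465 CPM. Per kilobase of exon, the mean over the conditions was highest for perp in this junction, 247 CPM, and lowest for pkp2, 10.6.

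The claudins, which form the seal of tight junctions, ranged from 502 to 1130.0 CPM for cldn1, 306 to 1036 CPM for cldn4, 261 to 695 CPM for cldn7, 64.5 to 365 CPM for cldn6.1, 27.0 to 120.3 CPM for cldn6.2 and 0.301 to 7.85 CPM for cldn3. Occludin (ocln), a second kind of strand protein, ranged from 209 to 389.7 CPM, and the scaffolds tjp1 and tjp3 (the zonula occludens proteins) from 84.6 to 188 CPM and from 77.6 to 193 CPM. Of the regulators, tp63 (p63, required for stratified epithelia) ranged from 164 to 431 CPM, klf4 and klf5 (Krüppel-like factors of barrier and proliferating layers in mammals) from 16.4 to 159 CPM and from 77.3 to 243 CPM, and esrp1 from 170.2 to 390.0 CPM. The grainyhead-like factors grhl1 and grhl3, activators of junction genes, ranged from 86.9 to 257 CPM and from 72.1 to 198 CPM, and the condition means of their relative grhl2 from 18.8 to 52.7 CPM. The epithelial ETS factors elf3 and ehf ranged from 144 to 747 CPM and from 22.4 to 78.4 CPM, and the ovo-like repressors ovol1 and ovol2 from 7.41 to 23.5 CPM and from 14.1 to 35.6 CPM.

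In the genome assembly UCB_Xtro_10.0, with which the start of each of the 34 genes in the count table coincides, some members are neighbours. cldn6.1 (chr9:12605705-12608748) and cldn6.2 (chr9:12613176-12617578) lie 4428 bases apart on opposite strands, each with 2 exons. cldn4 (chr2:42439295-42441628) and cldn3 (chr2:42478243-42481032), each a single exon, lie 36615 bases apart, and dsc3 (chr6:111459753-111482110) and dsg2 (chr6:111618614-111648811) lie 136504 bases apart. The gene tp63 (chr5:103961456-104069403) is followed by cldn1 (chr5:104239965-104251374) at 170562 bases. cdh1 lies at chr4:61444319-61476950 and klf4 at chr1:120791815-120801210. The exons of tjp1 share 85 bases with the gene LOC116409768 on the opposite strand, and the strand setting of the counting was not given in the sources used here. Reads that fit both copies of cldn6 could also be divided between them in counting.

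**Figure D1:**
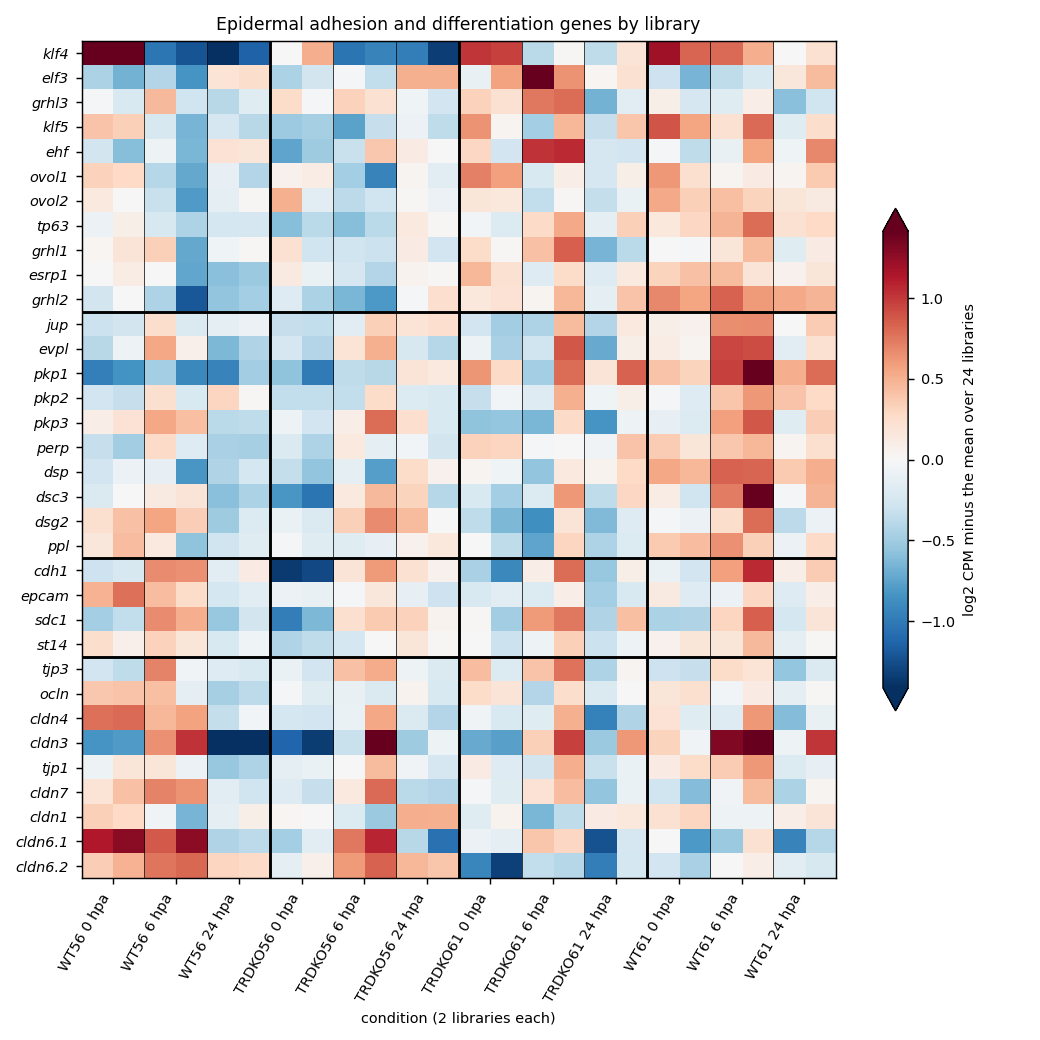
Heat map of the 34 genes, ordered by role, in the 24 libraries, ordered by group and time. The colour is log2 CPM minus the mean of that gene over the libraries, and klf4 and cldn3 show the widest spans.

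From 0 to 6 hpa, cdh1 and sdc1 rose in all 4 groups, and klf4 fell in WT56, TRDKO56 and TRDKO61. In WT56, 6 of the 34 members passed the test (18.9% of all genes did), 2 higher and 4 lower (10.2% and 8.66% of all genes). In TRDKO56, 7 passed (15.4% of all genes), 5 higher and 2 lower (8.56% and 6.81%). In TRDKO61, 5 passed (14.9% of all genes), 4 higher and 1 lower (8.75% and 6.17%). In WT61, 7 passed (7.16% of all genes), all of them higher (4.1% higher and 3.06% lower over all genes). These 7 calls were lost when 0 hpa replicate 1, 0 hpa replicate 2 or 6 hpa replicate 2 of WT61 was left out. An absolute log2 FC over 1 was also reached by 2 of them in WT56, 4 in WT61, 5 in TRDKO56 and 3 in TRDKO61, as by 9.2%, 3.97%, 9.03% and 8.98% of all genes. The members that passed were 17.6%, 20.6%, 14.7% and 20.6% of the list in WT56, TRDKO56, TRDKO61 and WT61. These were close to the shares of all genes in WT56 and TRDKO61, only a little above in TRDKO56, and above in WT61. The median log2 FC of the 34 genes was 0.04, 0.32, 0.38 and 0.31 in WT56, TRDKO56, TRDKO61 and WT61. Over all genes the median was between -0.04 and 0.00. The sign of the median turned in WT56 under upper-quartile scaling (-0.01) and without 0 hpa replicate 2 (-0.02) or 6 hpa replicate 1 (-0.14), and in TRDKO61 without 6 hpa replicate 2 (-0.01).

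The level of cdh1 in WT56 was 534 and 556 CPM at 0 hpa and 1036 and 1020.0 at 6 hpa (log2 FC 0.92 ± 0.20, FDR 0.0152). In TRDKO56 it was 256 and 269, then 741 and 987 (log2 FC 1.71 ± 0.28, FDR 0.00336). In TRDKO61 it was 476 and 346, then 698 and 1131 (log2 FC 1.18 ± 0.28, FDR 0.0196). In each of these groups both 6 hpa libraries lay above both 0 hpa libraries, and TRDKO56, which started lowest, had the largest fold. In WT61 the level was 612 and 541 at 0 hpa and 973 and 1354 at 6 hpa (log2 FC 1.02 ± 0.20, FDR 0.0215), again without overlap. Syndecan-1 rose by log2 FC between 0.92 and 1.08: sdc1 stood at 193 and 209.9 CPM and then 426 and 384 in WT56 (log2 FC 1.01 ± 0.19, FDR 0.00948). It stood at 136 and 173, then 313 and 346 in TRDKO56 (log2 FC 1.08 ± 0.22, FDR 0.00947). It stood at 271 and 190.0, then 408 and 449 in TRDKO61 (log2 FC 0.92 ± 0.22, FDR 0.0208). The libraries of the time points were separate in each of these groups as well. In WT61 sdc1 stood at 197 and 199.9, then 331 and 480.4 (log2 FC 1.03 ± 0.19, FDR 0.018).

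The surface gene of highest level per length did not pass in any of the 4 groups. epcam had 1375 and 1678 CPM at 0 hpa and 1322 and 1167 at 6 hpa in WT56 (log2 FC -0.29 ± 0.21), and 921 and 906, then 961 and 1089.9 in TRDKO56 (0.16 ± 0.21). In TRDKO61 it had 837 and 871, then 853 and 1038 (0.17 ± 0.21), and in WT61 1065 and 862, then 919.6 and 1193 (0.14 ± 0.21). st14, the protease, did not pass either, with log2 FC from 0.09 to 0.31.

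Desmosome genes passed mostly in WT61, but none differed in the direct tests of its change against WT56 or TRDKO61, given below. In WT61 all 10 had a positive log2 FC, with a median of 0.60, and 4 passed. pkp3 stood at 218 and 207 CPM at 0 hpa and 354 and 434 at 6 hpa (log2 FC 0.89 ± 0.16, FDR 0.015). The desmosomal cadherin dsc3 stood at 177 and 136, then 271 and 516 (log2 FC 1.34 ± 0.28, FDR 0.03). pkp1 stood at 190.3 and 179, then 281 and 389 (log2 FC 0.86 ± 0.19, FDR 0.0348). All 3 had separate libraries at the time points, and dsc3 differed most between its 6 hpa replicates. The plakin evpl stood at 817 and 784, then 1465 and 1448 (log2 FC 0.87 ± 0.21, FDR 0.0415). In the other groups 1 of 10 desmosome genes passed in TRDKO56 and none in WT56 and TRDKO61, with 8, 9 and 7 positive values in WT56, TRDKO56 and TRDKO61. The gene that passed in TRDKO56 was dsc3, at 93.1 and 80.3, then 182 and 227 CPM (log2 FC 1.23 ± 0.26, FDR 0.0115). dsp, the core plakin, passed in none: its log2 FC was -0.26 ± 0.23 in WT56 (759 and 863, then 839.6 and 515 CPM) and 0.00 ± 0.28 in TRDKO56 (724 and 622, then 829 and 532). In TRDKO61 it was -0.13 ± 0.28 (937 and 875, then 621 and 1006) and in WT61 0.32 ± 0.23 (1333 and 1266, then 1627 and 1618). The replicates of dsp at 6 hpa lay far apart in every group except WT61.

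Of the 9 tight junction genes none passed in WT56, 2 in TRDKO56 and 1 in each stage 61 group. The pair cldn6.1 and cldn6.2 rose together in TRDKO56: cldn6.1 had 108 and 136 CPM at 0 hpa and 254 and 318 at 6 hpa (log2 FC 1.22 ± 0.19, FDR 0.00253). Its neighbour cldn6.2 had 61.8 and 70.7, then 102 and 120.3 (log2 FC 0.73 ± 0.18, FDR 0.0232). In TRDKO61 cldn6.2 passed, at 35.4 and 27.0, then 52.9 and 50.8 (log2 FC 0.75 ± 0.18, FDR 0.0234), whereas cldn6.1 had log2 FC 0.48 ± 0.19. In WT61 the only tight junction gene to pass was cldn3, the member of lowest level, with log2 FC 2.14 ± 0.52. cldn1 and cldn4, next to cldn7 the claudins of highest level per length, passed in no group, with log2 FC of cldn1 from -0.63 to -0.33 and of cldn4 from -0.27 to 0.51.

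**Figure D2:**
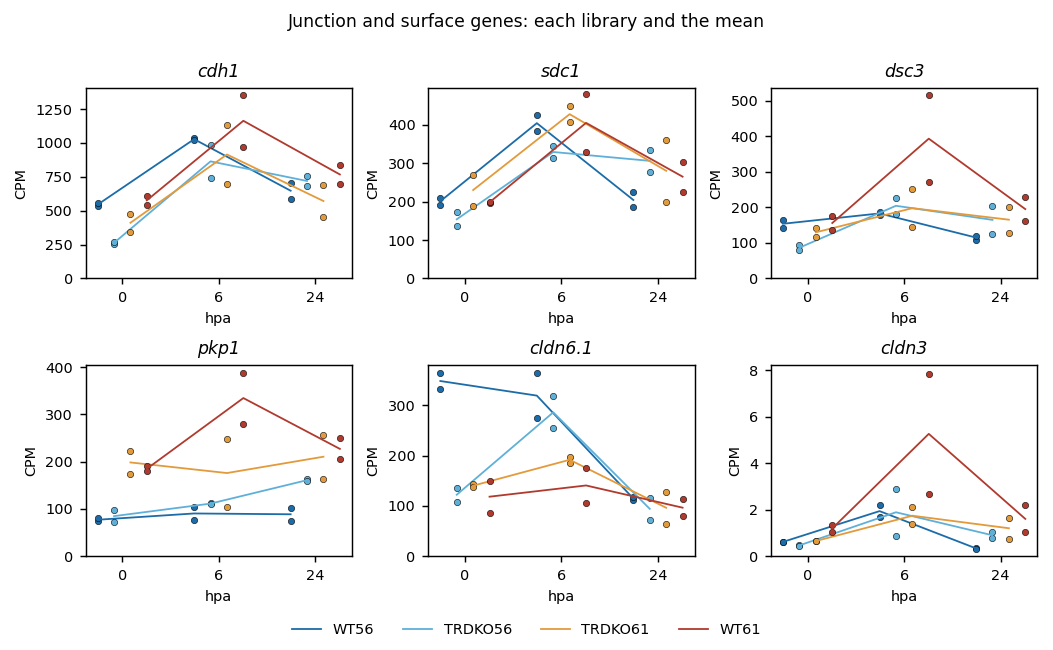
CPM of the junction and surface genes cdh1, sdc1, dsc3, pkp1, cldn6.1 and cldn3 in each library at 0, 6 and 24 hpa, which are drawn at equal spacing. Points are libraries and lines join condition means. In all 4 groups cdh1 and sdc1 are higher at 6 hpa than at 0 hpa.

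Among the regulators, klf4 in WT56 had the largest absolute log2 FC of any member in this step. It stood at 157 and 159 CPM at 0 hpa and 22.3 and 19.4 at 6 hpa in WT56 (log2 FC -2.92 ± 0.18, FDR 0.000166). It stood at 45.5 and 64.7, then 22.2 and 23.5 in TRDKO56 (log2 FC -1.28 ± 0.21, FDR 0.00318). It stood at 91.1 and 88.5, then 34.8 and 45.9 in TRDKO61 (log2 FC -1.13 ± 0.20, FDR 0.00571). The libraries of the time points were far apart in WT56 and separate in the other pair of groups. In WT61 klf4 had 104 and 80.4, then 78.9 and 64.6 CPM, a log2 FC of -0.35 ± 0.16 that did not pass (FDR 0.21). In WT56 ovol1, a repressor of mesenchymal genes in mammals, fell too, with 17.9 and 17.3, then 10.8 and 8.63 (log2 FC -0.86 ± 0.20, FDR 0.0208). Its relative ovol2 had 27.1 and 24.4, then 19.7 and 14.1 (log2 FC -0.62 ± 0.18, FDR 0.0474). klf5 had 173 and 165, then 112 and 83.2 (log2 FC -0.79 ± 0.23, FDR 0.0414), so the 4 members that fell in WT56 were all transcription factors. In TRDKO56 ovol1 fell too (log2 FC -0.78 ± 0.22, FDR 0.0383). In TRDKO61 the ETS factor ehf rose, from 46.1 and 31.2 to 76.7 and 78.4 (log2 FC 1.02 ± 0.25, FDR 0.0226). The p63 gene passed in no group: tp63 had log2 FC -0.33 ± 0.17 in WT56 (234 and 263, then 212 and 183 CPM) and -0.01 ± 0.19 in TRDKO56 (164 and 190.4, then 164 and 191). It had 0.55 ± 0.18 in TRDKO61 (242 and 217, then 301 and 359.8) and 0.43 ± 0.16 in WT61 (276 and 304, then 346 and 431), with both 6 hpa libraries above both 0 hpa libraries at stage 61.

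The counts of this step moved when a library was left out. The share of all genes passing in such fits is not given, for this step or elsewhere. A loss of calls common to all genes therefore cannot be told from one particular to the members. Without WT56 0 hpa replicate 1 or replicate 2, only 1 member passed in WT56, klf4, while without 6 hpa replicate 1 there were 10 (2 higher, 8 lower) and without 6 hpa replicate 2 there were 3. In TRDKO56 the counts were 3, 4, 10 and 3 without 0 hpa replicate 1, 0 hpa replicate 2, 6 hpa replicate 1 and 6 hpa replicate 2, and cldn6.1, klf4 and cdh1 passed each time. In TRDKO61 they were 5, 1, 7 and 2 in the same order, klf4 passing each time. In WT61 they were 0, 0, 9 and 0. Under RLE or upper-quartile scaling 6 members passed in TRDKO61, 4 higher and 2 lower. Upper-quartile scaling put the median of all genes at -0.12 in both TRDKO groups.

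Leukocyte markers rose over the same step, in 10 of 13 genes in each stage 56 group, 5 in WT61 and 11 in TRDKO61. Their summed level went from between 661 and 1047 CPM at 0 hpa to between 1316 and 3853 CPM at 6 hpa, with no gene of the list at 0. The list holds mmp9.1, which ranged from 35.6 to 1685 CPM over all libraries, and mmp9.2, from 2.88 to 316 CPM. These genes can make up much of the sum. Of the keratin genes, 3 rose and 3 fell in WT56 among 18 tested, 2 and 3 in TRDKO56 and 1 and 5 in TRDKO61 among 19, and 3 rose and none fell in WT61. The part of either in the changes above was not tested.

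From 6 to 24 hpa cldn6.1 fell in both stage 56 groups. This step shares its 6 hpa libraries with the step before it, so a high or low level at 6 hpa enters both with opposite sign. In WT56, 13 of the 34 members passed (26.1% of all genes), 1 higher and 12 lower (12.8% and 13.3% of all genes). In TRDKO56, 5 passed (22.8% of all genes), 2 higher and 3 lower (11.4% and 11.3%). In TRDKO61, 3 passed (4.01% of all genes), all lower (2.18% higher and 1.82% lower over all genes). An absolute log2 FC over 1 was also reached by 3 of them in WT56, 1 in TRDKO56 and 3 in TRDKO61, as by 13.2%, 12.5% and 2.85% of all genes. In WT61 none passed (1.82% of all genes) with edgeR, where 15 had an unadjusted p under 0.05 and DESeq2 called 4, evpl, tjp1, dsc3 and dsg2. The shares of all genes with an unadjusted p under 0.05 or called by DESeq2 are not given. The median log2 FC of the members was -0.41 and -0.40 in WT56 and WT61, and -0.16 and -0.27 in TRDKO56 and TRDKO61, against medians over all genes between -0.02 and 0.02. Without 6 hpa replicate 2 the median was 0.03 in TRDKO56 and 0.09 in TRDKO61.

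In WT56, 6 of 9 tight junction genes fell and 8 had negative values. cldn6.1 had 275 and 364 CPM at 6 hpa and 112 and 117 at 24 hpa (log2 FC -1.50 ± 0.28, FDR 0.00936). cldn6.2 had 114 and 118, then 83.1 and 81.5 (log2 FC -0.52 ± 0.10, FDR 0.0105). Both genes of the pair thus had lower values in every 24 hpa library, cldn6.1 by the larger fold. The other tight junction genes that fell were cldn7 (log2 FC -0.90 ± 0.21), ocln (-0.61 ± 0.19), tjp1 (-0.56 ± 0.14) and cldn3 (-2.55 ± 0.75). Of the surface genes 3 of 4 fell: sdc1 had 426 and 384, then 185 and 224 CPM (FDR 0.0151). cdh1 had 1036 and 1020.0, then 587 and 708 (log2 FC -0.69 ± 0.20, FDR 0.037). epcam had 1322 and 1167, then 819.6 and 869 (log2 FC -0.58 ± 0.18, FDR 0.0461). At 24 hpa sdc1 had libraries on both sides of its 0 hpa values, cdh1 lay above its own and epcam lay below its own.

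Of the desmosome genes of WT56, pkp3 fell from 345 and 317 to 182 and 184 CPM (log2 FC -0.88 ± 0.19, FDR 0.0139). evpl fell from 1114 and 800.0 to 492 and 569 (log2 FC -0.87 ± 0.20, FDR 0.0177). dsg2 fell with log2 FC -0.82 ± 0.21, and dsp had 839.6 and 515, then 678 and 767 CPM (log2 FC 0.07 ± 0.22). No regulator fell. elf3, an epithelial ETS factor, rose from 193 and 144 to 294 and 304 (log2 FC 0.81 ± 0.17, FDR 0.0129), and tp63 had 212 and 183, then 209 and 212 (0.07 ± 0.14). The 12 members that fell in this group were thus all junction or surface genes, while 8 of its 11 regulators had positive values. The signs of the regulators depend on their 6 hpa replicates, which lay far apart. Together the 11 regulators summed to 1250 and 842 CPM at 6 hpa. Their sums at 24 hpa, 1143 and 1179 CPM, lay between these.

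In TRDKO56, cldn6.1 fell from 254 and 318 to 115 and 72.7 CPM (log2 FC -1.63 ± 0.33, FDR 0.0125). cldn1 rose from 690.4 and 551 to 1130.4 and 1119.9 (log2 FC 0.83 ± 0.19, FDR 0.0164). cldn7 fell from 441 and 695 to 306 and 300.3 (log2 FC -0.93 ± 0.25, FDR 0.0292). The claudins of this group thus moved in both directions. The grainyhead-like factor grhl2 rose from 20.4 and 18.3 to 31.7 and 37.7 (log2 FC 0.82 ± 0.23, FDR 0.0347), and tjp3 fell from 151 and 163 to 108 and 98.5 (log2 FC -0.63 ± 0.20, FDR 0.0487). cdh1 had 759.9 and 679 CPM at 24 hpa (-0.29 ± 0.29, not passing), above both of its 0 hpa libraries. The values of epcam, dsp and tp63 at 24 hpa were 896 and 793, 1094 and 951 and 274 and 252 CPM, and none passed.

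In TRDKO61 the members that passed with edgeR were all regulators. DESeq2 called 8 members, 1 higher and 7 lower, and the share of all genes it called is not given. ehf fell from 76.7 and 78.4 to 31.8 and 31.1 CPM (log2 FC -1.30 ± 0.21, FDR 0.0237). grhl3 fell from 192 and 197 to 72.1 and 103 (log2 FC -1.15 ± 0.19, FDR 0.0241). grhl1 fell from 191 and 257 to 91.0 and 110.4 (log2 FC -1.15 ± 0.20, FDR 0.026). In all 3 the time points did not overlap, and the mean at 24 hpa was below that at 0 hpa. cdh1 had 451 and 692 CPM at 24 hpa (-0.68 ± 0.29), epcam 700.1 and 838, dsp 944 and 1108 and tp63 227 and 313, and none passed. In WT61 all 10 desmosome genes, 4 of 4 surface genes and 8 of 9 tight junction genes had negative values. cdh1 had 697 and 838 CPM at 24 hpa (-0.60 ± 0.20), epcam 861 and 1044, dsp 1183 and 1305 and tp63 289 and 302.

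Without either 24 hpa library of WT56 no member passed there, without 6 hpa replicate 1 there were 7 (5 higher, 2 lower) and without 6 hpa replicate 2 there were 8, all lower. The 5 higher ones were elf3, ovol2, grhl2, grhl1 and cldn1. In TRDKO56 the counts were 3, 0, 1 and 0 without 6 hpa replicate 1, 6 hpa replicate 2, 24 hpa replicate 1 and 24 hpa replicate 2. In TRDKO61 they were 0, 0, 0 and 3 in the same order, and in WT61 dsc3 alone passed without 6 hpa replicate 1. Muscle markers fell over this step in 12 of 12 genes tested in WT56, whose 13 genes summed to 30979.8 and 35978 CPM at 6 hpa and 9228 and 8225 at 24 hpa with 1 gene at 0, and in 11 of 12 in TRDKO56. No muscle gene fell in TRDKO61 and 1 fell in WT61. The part of muscle RNA in the members' values was not tested.

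**Figure D3:**
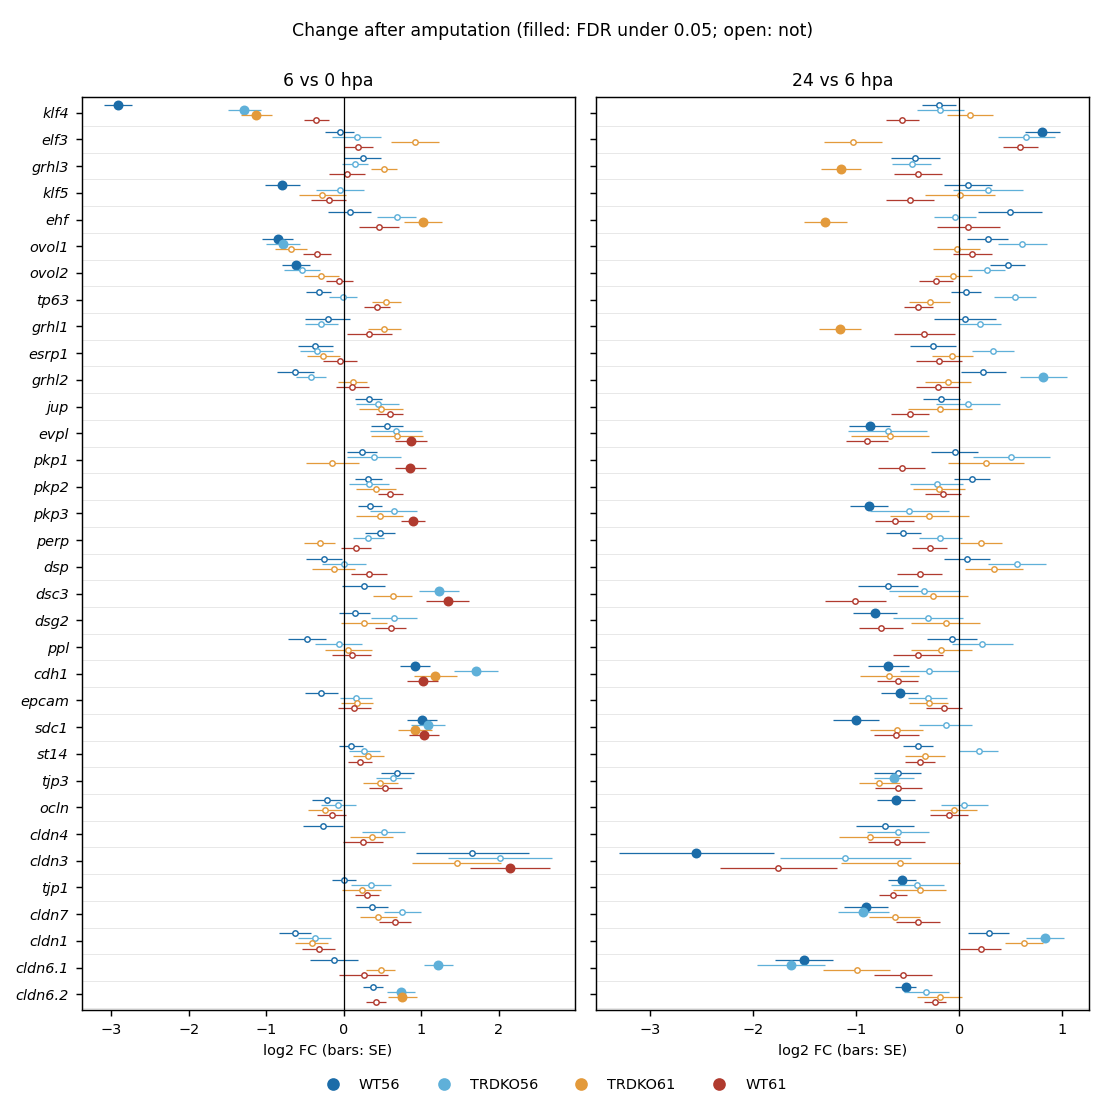
Log2 FC of the 34 members from 0 to 6 hpa and from 6 to 24 hpa in each of the 4 groups, with colours for groups, standard errors as bars and filled points for FDR under 0.05. In all 4 groups cdh1 and sdc1 lie above 0 in the first step, and the points of klf4 in that step reach from -2.92 in WT56 to -0.35 in WT61. The steps share their 6 hpa libraries.

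**Figure D4:**
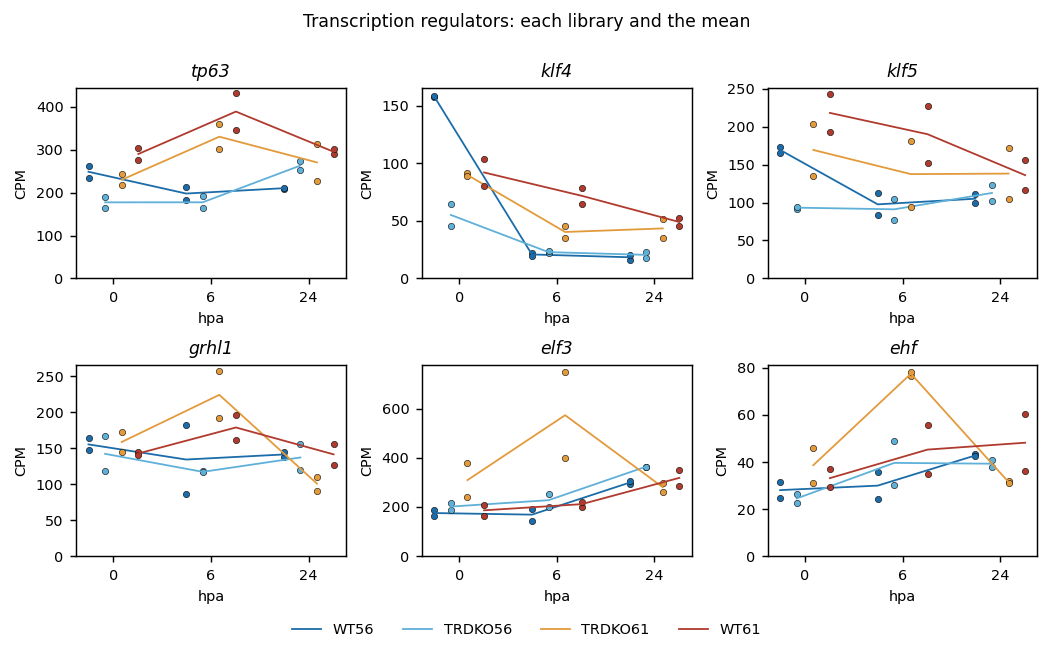
CPM of the regulators tp63, klf4, klf5, grhl1, elf3 and ehf in each library at 0, 6 and 24 hpa, drawn at equal spacing, with lines through condition means. The 0 hpa libraries of WT56 have the highest klf4, and a single 6 hpa library of TRDKO61 has the highest elf3.

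Between the stages at 0 hpa, pkp1 was higher and cldn6.2 was lower at stage 61 in both genotypes, and klf4 differed in opposite directions. In WT, 10 of the 34 members differed (26.9% of all genes), 4 higher and 6 lower at stage 61 (12.1% and 14.8% of all genes). In TRDKO, 12 differed (21.9% of all genes), 10 higher and 2 lower (9.63% and 12.3%). These are 29.4% and 35.3% of the members, which in WT is close to the share of all genes. The median log2 FC was 0.07 in WT and 0.27 in TRDKO, against -0.01 and 0.02 over all genes. Without WT61 replicate 1 the median in WT was -0.02. In each genotype 2 of the members that differed also had an absolute log2 FC over 1 (12% of all genes in WT and 10.3% in TRDKO).

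The plakophilin pkp1, a plaque protein of upper epidermal layers in mammals, had 73.8 and 80.1 CPM in WT56 and 190.3 and 179 in WT61 (log2 FC 1.26 ± 0.17, FDR 0.000217). In TRDKO it had 97.1 and 72.0 at stage 56 and 222 and 174 at stage 61 (log2 FC 1.23 ± 0.16, FDR 0.00027). The stage difference in WT minus that in TRDKO was 0.03 ± 0.23 for pkp1. perp was higher as well, with log2 FC 0.66 ± 0.17 in WT, and with 557 and 474 against 807 and 792 CPM in TRDKO (log2 FC 0.63 ± 0.17, FDR 0.0231). dsp had 759 and 863 against 1333 and 1266 in WT (log2 FC 0.67 ± 0.18, FDR 0.0178) and 724 and 622 against 937 and 875 in TRDKO (log2 FC 0.42 ± 0.18, FDR 0.124). In TRDKO dsc3 was higher at stage 61, with 93.1 and 80.3 against 142 and 118 (log2 FC 0.58 ± 0.16, FDR 0.0239), and pkp3 was lower (-0.40 ± 0.13).

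Of the 9 tight junction genes, 4 were lower at stage 61 in WT and none was higher. cldn6.1 had 332 and 365 CPM in WT56 and 150.3 and 86.0 in WT61 (log2 FC -1.57 ± 0.23, FDR 0.000657). cldn6.2 had 85.8 and 94.3 against 56.0 and 49.0 (log2 FC -0.79 ± 0.15, FDR 0.00273). cldn7 had 455 and 532 against 328 and 261 (log2 FC -0.76 ± 0.17, FDR 0.00599), and cldn4 was lower by a similar size (-0.77 ± 0.18). Of these only cldn6.2 differed in TRDKO, with 61.8 and 70.7 at stage 56 and 35.4 and 27.0 at stage 61 (log2 FC -1.09 ± 0.15, FDR 0.000399). The corresponding values in TRDKO were 0.19 ± 0.23 for cldn6.1, 0.15 ± 0.17 for cldn7 and 0.13 ± 0.18 for cldn4. epcam was lower at stage 61 in WT, with 1375 and 1678 against 1065 and 862 CPM (log2 FC -0.67 ± 0.20, FDR 0.0251), and had 921 and 906 against 837 and 871 in TRDKO (log2 FC -0.10 ± 0.20, FDR 0.753). cdh1 had log2 FC 0.07 ± 0.18 in WT, while in TRDKO it was higher, with 256 and 269 at stage 56 and 476 and 346 at stage 61 (log2 FC 0.64 ± 0.18, FDR 0.0243). sdc1 was higher too in TRDKO (0.57 ± 0.18) and had -0.03 ± 0.18 in WT.

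Among regulators, grhl2 was higher at stage 61 in both genotypes, with 26.8 and 31.8 against 51.1 and 47.0 CPM in WT (log2 FC 0.75 ± 0.15, FDR 0.00317) and log2 FC 0.49 ± 0.15 in TRDKO. klf4 had 157 and 159 in WT56 and 104 and 80.4 in WT61 (log2 FC -0.79 ± 0.17, FDR 0.00532). In TRDKO it had 45.5 and 64.7 at stage 56 and 91.1 and 88.5 at stage 61 (log2 FC 0.69 ± 0.17, FDR 0.0141). The stage 61 levels thus lay between those of WT56, the highest, and TRDKO56, the lowest. In TRDKO klf5 was higher at stage 61, with 91.8 and 94.7 against 204 and 134 (log2 FC 0.85 ± 0.19, FDR 0.00685), as were ovol1 (0.56 ± 0.17) and ehf (0.65 ± 0.20). tp63 had log2 FC 0.21 ± 0.14 in WT and 0.37 ± 0.14 in TRDKO and passed in neither.

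The stage difference itself was compared between genotypes, as WT minus TRDKO, and 3 members differed (5.55% of all genes). For klf4 the difference of differences was -1.48 ± 0.24 (FDR 0.00609), for cldn6.1 it was -1.76 ± 0.32 (FDR 0.0133) and for cldn7 -0.91 ± 0.24 (FDR 0.0469). In all 3 the gene was lower at stage 61 in WT and had a positive value in TRDKO. For other genes that passed in a single genotype the difference did not pass: it was -0.90 ± 0.26 for cldn4 (FDR 0.066), -0.57 ± 0.28 for epcam, -0.57 ± 0.25 for cdh1, -0.60 ± 0.25 for sdc1, -0.50 ± 0.26 for klf5, -0.57 ± 0.23 for dsc3 and 0.25 ± 0.26 for dsp. Without WT56 replicate 1 the FDR of klf4 was 0.0543, and cldn6.1 did not pass without WT56 replicate 1 or replicate 2, nor in a single fit to all 24 libraries. cldn7 did not pass when any of 7 of the 8 libraries was left out, nor under upper-quartile scaling, in the single fit to all 24 libraries or with the replicate block (FDR up to 0.149). For the stage comparisons the counts were 7, 7, 8 and 5 in WT without WT56 replicate 1, WT56 replicate 2, WT61 replicate 1 and WT61 replicate 2, with pkp1, cldn6.1 and cldn6.2 passing each time. In TRDKO they were 3, 5, 5 and 11 without TRDKO56 replicate 1, TRDKO56 replicate 2, TRDKO61 replicate 1 and TRDKO61 replicate 2, with pkp1 and cldn6.2 passing each time. Muscle markers were lower at stage 61 in 7 of 12 genes in WT and 8 of 12 in TRDKO, keratins higher in 3 and lower in 8 of 19 in WT and higher in 5 and lower in 7 in TRDKO. Their part in these values was not tested.

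**Figure D5:**
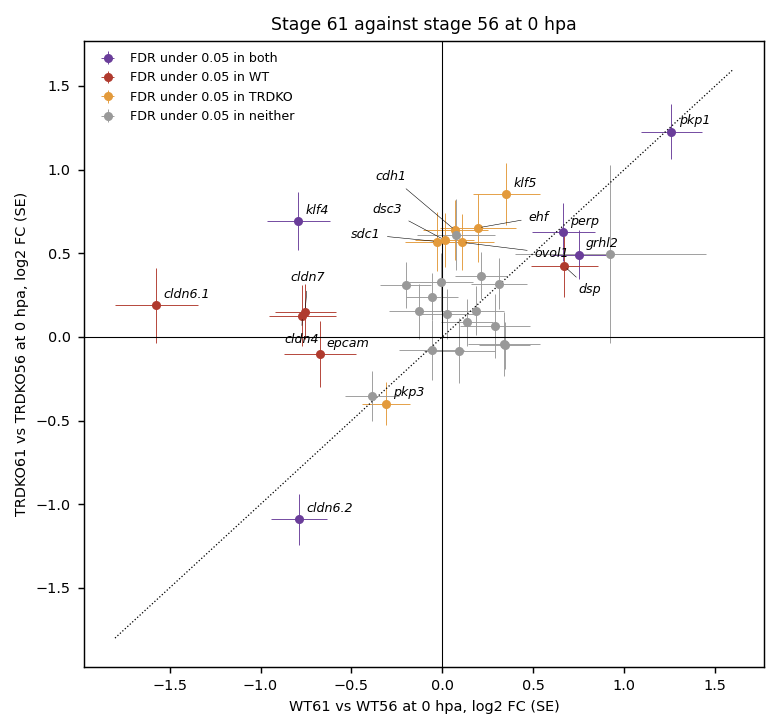
Log2 FC of stage 61 against stage 56 at 0 hpa in WT (horizontal) and TRDKO (vertical) for the 34 members, with standard errors as bars, equality as a dotted line and colours for FDR under 0.05. On the diagonal lies pkp1, at 1.26 and 1.23, and klf4 lies at -0.79 and 0.69.

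Between genotypes at stage 56 and 0 hpa, 8 of the 34 members differed (5.93% of all genes), or 23.5% of the list, and all 8 were lower in TRDKO56 (4.04% of all genes were lower and 1.9% higher). With an absolute log2 FC over 1 as well there were 4 (3.05% of all genes). Of the 34 genes 28 had negative values, with a median log2 FC of -0.31 against 0.01 over all genes. klf4 had 157 and 159 CPM in WT56 and 45.5 and 64.7 in TRDKO56 (log2 FC -1.52 ± 0.18, FDR 0.000624). cldn6.1 had 332 and 365 against 108 and 136 (log2 FC -1.52 ± 0.23, FDR 0.00417). cdh1 had 534 and 556 against 256 and 269 (log2 FC -1.06 ± 0.18, FDR 0.00565). These genes of different roles each had both TRDKO56 libraries well below both WT56 libraries. cldn4 had 1015 and 1036 against 499 and 491 (log2 FC -1.06 ± 0.18, FDR 0.00645). dsc3 had 143 and 165 against 93.1 and 80.3 (log2 FC -0.83 ± 0.16, FDR 0.0123). klf5 had 173 and 165 against 91.8 and 94.7 (log2 FC -0.87 ± 0.19, FDR 0.0194). The surface genes st14 (-0.56 ± 0.14) and epcam were lower as well, epcam with 1375 and 1678 against 921 and 906 (log2 FC -0.75 ± 0.20, FDR 0.0483). dsp and tp63 had log2 FC -0.27 ± 0.18 and -0.49 ± 0.14 and did not pass.

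This comparison uses the same WT56 and TRDKO56 libraries as the stage comparisons, so the low 0 hpa values of TRDKO56 enter its first step and its stage difference too. Without WT56 replicate 1 or TRDKO56 replicate 1 the count was 4, without TRDKO56 replicate 2 it was 3 and without WT56 replicate 2, the smallest library of the series, it was 1, and klf4 passed each time. Of the keratin genes 1 was higher and 2 were lower in TRDKO56 among 19 tested, and no muscle or fibroblast marker differed. The 23 keratin genes summed to 11291 and 14686 CPM in WT56, and 12678 and 9997 in TRDKO56. Muscle genes summed to 26058.5 and 37603 CPM in WT56, and 23594 and 18864 in TRDKO56. Notochord and cartilage genes summed to 1582 and 1685 CPM in WT56, and 1114 and 893 in TRDKO56. The part of these tissues in the members' values was not tested.

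At stage 61 and 0 hpa, 8 of the 34 members differed between TRDKO61 and WT61 (29.9% of all genes), or 23.5% of the list, 1 higher and 7 lower in TRDKO61 (14.6% and 15.4% of all genes). That share was only a little below the one of all genes, and no member that differed had an absolute log2 FC over 1 (11.7% of all genes). Desmosome genes made up 5 of the 7 lower ones, out of 10 in the list: jup had 387 and 381 CPM in WT61 and 302 and 259 in TRDKO61 (log2 FC -0.46 ± 0.14, FDR 0.0287). pkp3 had 218 and 207 against 160.0 and 161 (log2 FC -0.41 ± 0.13, FDR 0.0343). ppl had 970.4 and 1018 against 752 and 583 (log2 FC -0.58 ± 0.20, FDR 0.0433). The libraries of the genotypes did not overlap in these 3. The remaining pair was dsg2 (-0.43 ± 0.15) and dsp, with 1333 and 1266 in WT61 and 937 and 875 in TRDKO61 (log2 FC -0.52 ± 0.18, FDR 0.0491). cldn6.2 had 56.0 and 49.0 against 35.4 and 27.0 (log2 FC -0.74 ± 0.15, FDR 0.00386), and grhl2 had 51.1 and 47.0 against 35.6 and 37.0 (log2 FC -0.43 ± 0.14, FDR 0.0349). The only higher gene was elf3, with 209 and 163 in WT61 and 239 and 379 in TRDKO61 (log2 FC 0.73 ± 0.21, FDR 0.0243). cdh1, epcam and tp63 had log2 FC -0.49 ± 0.18, -0.18 ± 0.20 and -0.34 ± 0.14 and did not pass. Under upper-quartile scaling 4 members passed, 2 higher and 2 lower. Without TRDKO61 replicate 1 the count was 7, without TRDKO61 replicate 2 it was 2, without WT61 replicate 1 it was 3 and without WT61 replicate 2 it was 1, and cldn6.2 passed each time. Other tissues differed widely here: muscle markers were lower in TRDKO61 in 9 of 12 genes and neural markers in 10 of 11, while keratins were higher in 9 and lower in 7 of 19, and the part of this in the members' values was not tested.

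At 6 hpa, 2 members differed between TRDKO61 and WT61 (9.89% of all genes), 1 higher and 1 lower (5.56% and 4.33%). Of these elf3 had an absolute log2 FC over 1 (6.52% of all genes). elf3 had 201 and 222 CPM in WT61 and 747 and 399 in TRDKO61 (log2 FC 1.44 ± 0.30, FDR 0.0243), where the TRDKO61 libraries lay far apart. klf4 had 78.9 and 64.6 against 34.8 and 45.9 (log2 FC -0.83 ± 0.19, FDR 0.0297). All 10 desmosome genes had negative values with a median of -0.72, and none passed. Here dsp had 1627 and 1618 in WT61 and 621 and 1006 in TRDKO61 (FDR 0.0936), and the replicates of TRDKO61 differed more than those of WT61. The corresponding log2 FC was -0.35 ± 0.27 for cdh1, -0.16 ± 0.20 for epcam and -0.24 ± 0.19 for tp63. Without TRDKO61 replicate 1 or WT61 replicate 1 no member passed, without WT61 replicate 2 there was 1, and without TRDKO61 replicate 2 there were 5, elf3, pkp1, evpl, dsg2 and klf4. At 24 hpa none passed with edgeR (15.5% of all genes), 5 had an unadjusted p under 0.05 and DESeq2 called 0. Shares of all genes that match the unadjusted and DESeq2 counts are not given. The values of cdh1, epcam, dsp and tp63 at 24 hpa were -0.41 ± 0.21, -0.29 ± 0.16, -0.26 ± 0.15 and -0.11 ± 0.15. Without TRDKO61 24 hpa replicate 2 there were 5, cldn6.2, grhl2, cdh1, evpl and pkp3, and ehf alone passed without WT61 24 hpa replicate 1.

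Whether a change over time itself differed between groups was tested directly. For the first step klf4 was the only member that differed between WT61 and WT56 (0.0251% of all genes), with a difference in log2 FC of 2.56 ± 0.24 (FDR 0.0252). It did not pass without WT56 0 hpa replicate 1 or 2, WT56 6 hpa replicate 2 or WT61 0 hpa replicate 1 or 2, with FDR up to 0.338. Against TRDKO61 the change of klf4 in WT61 differed by 0.78 ± 0.27 (FDR 0.735). All other tests of this kind called 0 members with edgeR. On simulated data, the test of WT61 against WT56 for the first step recovered 29 of 111 differences of 1 on the log2 scale. It recovered 87 of 89 differences of 2. The simulation gave every gene the same spread between replicates and no shift common to the genes of a library. Its rates therefore need not hold for the real libraries, where members shifted together. A count of 0 does not show that changes of the members were equal. For WT61 against TRDKO61 from 0 to 6 hpa (0% of all genes), 1 member had an unadjusted p under 0.05, and for TRDKO61 against TRDKO56 (0.0312% of all genes) 2 did, with 0 called by DESeq2 in both. All shares of all genes for these tests are edgeR calls at FDR under 0.05. None is given for unadjusted p or DESeq2. The 10 desmosome genes all had a larger log2 FC in WT61 than in TRDKO61, by a median of 0.40, and none had an unadjusted p under 0.05. Their summed level in TRDKO61 at 6 hpa was 3188 CPM in replicate 1 and 5656 in replicate 2. The median difference of all members, 0.10, became -0.16 without TRDKO61 6 hpa replicate 1 and 0.46 without replicate 2. Without each other library it lay between 0.02 and 0.25. From 6 to 24 hpa, WT61 against TRDKO61 gave 4 members under 0.05 unadjusted and 1 call by DESeq2, elf3 (0% of all genes in edgeR), and WT61 against WT56 gave 2 and 0 (0.081% of all genes). TRDKO61 against TRDKO56 gave 6 and 3 (1% of all genes), the 3 being elf3, grhl1 and ehf. Their differences were -1.35 ± 0.29 for grhl1 (FDR 0.0644), -1.26 ± 0.29 for ehf (FDR 0.0717) and -1.68 ± 0.39 for elf3 (FDR 0.0743), each more negative at stage 61.

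Over the 21 comparisons, 31 of the 34 members passed in at least 1 and 3 passed in none. The share of all genes passing in at least 1 was not counted, and up to 29.9% of all genes passed in a single comparison. The comparisons share libraries, so passes of a gene in several of them are not independent. klf4 passed in 9, cdh1 in 7, and cldn6.1, cldn6.2 and sdc1 in 6 each. The 3 that passed in none were tp63, the splicing factor gene esrp1 and pkp2, the desmosome gene of lowest level per length. In the 14 comparisons other than differences of differences, their log2 FC lay between -0.49 and 0.55 for tp63, between -0.37 and 0.33 for esrp1 and between -0.31 and 0.60 for pkp2.

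Other genes were counted from lists of 114 genes, 108 of them tested. The epithelial lists held 11 desmosome and cornified envelope genes, 13 adherens junction genes and 28 tight junction and polarity genes. They also held 31 epidermal transcription regulators and 25 membrane protease and surface genes. A further list held 6 transcription factors of the epithelial to mesenchymal transition, and the counts below pool all lists. From 0 to 6 hpa 10 rose and 17 fell in WT56, which is 9.26% and 15.7% of the 108 against 10.2% and 8.66% of all genes. In WT61 8 rose and 1 fell (7.41% and 0.926%, against 4.1% and 3.06%), in TRDKO56 13 and 16 (12% and 14.8%, against 8.56% and 6.81%) and in TRDKO61 9 and 6 (8.33% and 5.56%, against 8.75% and 6.17%). Of the cornified envelope genes, alox12b, a lipoxygenase of the epidermal barrier, rose in all 4 groups with log2 FC 2.75 ± 0.64 in WT56, 3.20 ± 0.57 in WT61, 2.30 ± 0.53 in TRDKO56 and 2.95 ± 0.50 in TRDKO61. cnfn.1, a cornifelin gene, rose by 2.14 ± 0.35, 4.20 ± 0.29 and 1.34 ± 0.26 on the log2 scale in WT56, TRDKO56 and TRDKO61. The plakophilin relative pkp4 rose in the same 3 groups, by 1.14 ± 0.14, 1.10 ± 0.19 and 1.32 ± 0.19. prdm1 (Blimp1), a repressor active in differentiating epidermis of mammals, rose as well, by 1.50 ± 0.19 in TRDKO56, 1.75 ± 0.34 in WT61 and 2.24 ± 0.19 in TRDKO61. Among those that fell was tfap2b, an AP-2 factor, by 1.58 ± 0.33 in WT56 and 1.42 ± 0.21 in TRDKO56. abca12 and tgm5 of the desmosome and cornified envelope list fell too, in WT56 (log2 FC -1.14 ± 0.31) and TRDKO56 (-1.37 ± 0.33). So did several numbered copies of tmprss2 on the protease list, whose 25 genes matched 15 symbols. tmprss2.13 had log2 FC -1.46 ± 0.31 in WT56, -1.81 ± 0.26 in TRDKO56 and -1.35 ± 0.26 in TRDKO61. tmprss2.7 had -2.02 ± 0.23 in WT56 and -1.79 ± 0.22 in TRDKO56. From 6 to 24 hpa 15 rose and 11 fell in WT56 (13.9% and 10.2%, against 12.8% and 13.3% of all genes), 21 and 8 in TRDKO56 (19.4% and 7.41%, against 11.4% and 11.3%) and 0 and 5 in TRDKO61 (0% and 4.63%, against 2.18% and 1.82%). In WT61 none rose and 1 fell, where 1.82% of all genes passed in either direction. dlx3, a homeobox factor of epidermis, rose by 1.66 ± 0.22 in WT56 and 1.78 ± 0.17 in TRDKO56, and tp73, the p53-family relative of tp63, by 1.44 ± 0.30 and 1.63 ± 0.21. The claudin gene cldn19, of low level, fell in both, with log2 FC -2.94 ± 0.36 and -2.50 ± 0.52. It had 4.87 and 6.65, then 0.719 and 0.782 CPM in WT56. In TRDKO56 it had 4.32 and 3.88, then 0.654 and 0.822.

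At 0 hpa 24 of these genes were higher and 19 lower at stage 61 in WT (22.2% and 17.6%, against 12.1% and 14.8% of all genes), and 24 and 10 in TRDKO (22.2% and 9.26%, against 9.63% and 12.3%). The desmosomal cadherin dsg1, of the upper epidermis in mammals, had 14.4 and 10.8 CPM in WT56 and 124 and 111 in WT61 (log2 FC 3.16 ± 0.18, FDR 6.89e-07). In TRDKO it had 30.9 and 26.0 at stage 56 and 152 and 126 at stage 61 (log2 FC 2.29 ± 0.16, FDR 3.13e-06). It was higher at stage 61 in both genotypes, as was pkp1. tgm5, a transglutaminase of the cornified envelope, differed by 2.67 ± 0.24 in WT and 2.28 ± 0.22 in TRDKO. abca12 of the same list was lower at stage 61 in WT (log2 FC -1.61 ± 0.22, FDR 0.000454), and cnfn.1 was higher in TRDKO (3.17 ± 0.33). The stage difference in WT minus that in TRDKO was -2.15 ± 0.31 for abca12 (FDR 0.00425) and -2.19 ± 0.43 for cnfn.1 (FDR 0.0218). elf5, an ETS factor related to elf3 and ehf, had 1.15 and 0.521 CPM in WT61 and 15.1 and 11.9 in TRDKO61 (log2 FC 4.11 ± 0.34, FDR 1.52e-05). Between genotypes 4 of the 108 were higher and 8 lower in TRDKO56 (3.7% and 7.41%, against 1.9% and 4.04% of all genes), and 16 were higher and 16 lower in TRDKO61 at 0 hpa (14.8% and 14.8%, against 14.6% and 15.4%).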

How the data were processed

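Poly-A-selected RNA of tail tissue from the 12 conditions was sequenced with 2 libraries each, made with a stranded kit. The authors deposited counts, whole numbers per gene without normalization. The labels' processing notes name cutadapt 3.2, STAR 2.7.7a and featureCounts of Subread 2.0.1. The paper's methods name earlier versions of STAR and Subread, and which were used for these counts was not settled. The strand and duplicate settings are not given in the sources used here, and 2 genes broken over 3 lines each were rejoined. Totals ran from 3956148 to 20731438 counts, and precision is limited by 2 libraries per condition.

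Counts were tested with edgeR 4.0.16 (limma 3.58.1, statmod 1.5.0, R 4.3.3). Genes were kept with filterByExpr and scaled with TMM, and a robust quasi-likelihood model was fitted to 8 libraries per comparison: both stages of a genotype at 2 time points, the 4 groups at 1 time point, or WT61 and TRDKO61 at 2 time points. Tests were two-sided, with Benjamini-Hochberg adjustment over all genes tested, and a gene passed at FDR under 0.05. The standard error is the size of the log2 FC divided by the square root of F. CPM used TMM factors over all 24 libraries.

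The members, the lists of other genes and the markers were chosen with earlier results of these data known. Library values are given for tp63, cdh1, epcam, dsp and up to 6 members of smallest FDR that passed in a comparison. Genes of other lists are named only with FDR under 0.05 and an absolute log2 FC over 1, up to 4 per list and comparison. Alternatives were RLE and upper-quartile scaling, no filter, a single fit to 24 libraries, the replicate number as a block, DESeq2 1.42.0, an absolute log2 FC over 1, and leaving out each library in 72 fits. The fits were tested on simulated data, with the same spread for every gene and no shift common to the genes of a library. Recovery in the real libraries can therefore differ. Changes of 1 on the log2 scale were recovered in 81 of 108 genes for WT56 from 0 to 6 hpa and in 59 of 84 for the WT stages. For the first step of WT61 against WT56 it was 29 of 111. Promoter and protein sequences were not analysed here.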

Additional observations from a re-analysis of the deposited data

Results flagged for a closer look

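For 3 members an effect differed between groups by a test of the difference itself. The change of klf4 from 0 to 6 hpa differed between WT61 and WT56 by 2.56 on the log2 scale, with log2 FC -2.92 in WT56 and -0.35 in WT61. The difference between stages at 0 hpa differed between WT and TRDKO by -1.48 for klf4, with log2 FC -0.79 in WT and 0.69 in TRDKO. It differed by -0.907 for cldn7, with -0.76 in WT and 0.15 in TRDKO (a call lost under upper-quartile scaling, in a single fit to 24 libraries and with the replicate block), and by -1.76 for cldn6.1, with -1.57 in WT and 0.19 in TRDKO. All of them use the WT56 libraries at 0 hpa, in which klf4, cldn7 and cldn6.1 had higher levels than in the 0 hpa libraries of the other 3 groups. Each of these calls was lost when WT56 0 hpa replicate 1 was left out. That of cldn6.1 was also lost without WT56 0 hpa replicate 2 and in the single fit to 24 libraries. The first-step call of klf4 was also lost without WT56 0 hpa replicate 2, WT56 6 hpa replicate 2 or either WT61 0 hpa library. That of cldn7 was lost without most of the libraries in turn.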

How the results depend on the processing

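Of the 90 results in which a member passed, 55 passed under every alternative other than leaving out libraries, 12 passed without each library in turn, and none changed direction. With an absolute log2 FC over 1 required, the counts were 2 in WT56, 3 in TRDKO61 and 4 in WT61 from 0 to 6 hpa, 3 in WT56 and 1 in TRDKO56 from 6 to 24 hpa, 2 and 2 for the stages in WT and TRDKO, 4 for TRDKO56 against WT56, and 0 and 1 for TRDKO61 against WT61 at 0 and 6 hpa. In a single fit to 24 libraries they were 8 in TRDKO61 and 4 in WT61 for the first step, 8 in TRDKO56 and 6 in TRDKO61 for the second, 4 for the stages in TRDKO, 4 for TRDKO56 against WT56, 2 and 9 for TRDKO61 against WT61 at 0 and 6 hpa, 3 for the second step of TRDKO61 against TRDKO56, and 1 for the stage difference of WT minus TRDKO. Without the filter they were 5 in TRDKO61 and 2 in WT61 for the second step, and 3 for TRDKO61 against TRDKO56. DESeq2 gave 8 and 4 for the second step of TRDKO61 and WT61, 6 for TRDKO61 against WT61 at 6 hpa, and 1 and 3 for the second step of WT61 and of TRDKO56 against TRDKO61. Upper-quartile scaling gave 4 for TRDKO61 against WT61 at 0 hpa. The causes of these shifts were not tested.

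Leaving out 1 library gave 1 to 10 in WT56, 3 to 10 in TRDKO56, 1 to 7 in TRDKO61 and 0 to 9 in WT61 for the first step, and 0 to 8, 0 to 3, 0 to 3 and 0 to 1 for the second. It gave 5 to 8 and 3 to 11 for the stages in WT and TRDKO, 1 to 4 for TRDKO56 against WT56, and 1 to 7, 0 to 5 and 0 to 5 for TRDKO61 against WT61 at 0, 6 and 24 hpa. It gave 0 to 2 for the first step of WT61 against WT56, 0 to 1 for the second step of TRDKO61 against TRDKO56, and 0 to 6 for the stage difference of WT minus TRDKO.

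With the replicate number as a block, 4 members passed for TRDKO61 against WT61 at 0 hpa and 5 at 6 hpa, and the other counts stayed within 1.5 times. Deviations of same-numbered libraries correlated between -0.313 and 0.311 over 66 pairs of conditions, with a median of -0.0359 and 12 pairs over 0.1. These values show no pairing common to all conditions, and a pairing among some of the conditions was not tested.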
